A study of Mus musculus with 6 samples.

Results

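The astrocyte lineage onset genes are 10 genes that mark the beginning of astrocyte formation in the cortex near birth. They are Gfap, Aqp4, Aldh1l1, Aldoc, Gja1, Sox9, Nfia, Slco1c1, S100b and Sparcl1, and all 10 were found by symbol among the 17348 genes measured by mRNA sequencing of embryonic mouse cortex at E18.5. The measurements come from 6 libraries, 3 of Ybx1 conditional knockout (cKO) cortex and 3 of control cortex. In the breeding scheme of the study, cKO embryos carried Nestin-Cre and floxed Ybx1 on both alleles (Nestin-Cre,Ybx1 fl/fl), so that exons of Ybx1 are deleted where Cre is active. Controls were littermates, described as Ybx1 fl/fl without Cre in the breeding scheme and as wild type in the sequencing methods and sample labels. Nestin-Cre is active in neural stem and progenitor cells, from which cortical neurons and astrocytes descend. The sources do not say whether a library came from 1 embryo or from several. The p-values thus set each group difference against the spread between these libraries. The question for each gene was whether its level differed between cKO and control cortex.

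In the mouse cortex, radial glial cells make neurons first and turn to making astrocytes late in embryonic life. The turn is known to need the transcription factors Sox9 and Nfia, together with cytokine signalling through gp130, Jak kinases and Stat3, and Bmp signalling. Genes such as Aldoc and Sox9 are already active in radial glia, while Gfap, Aqp4 and S100b are known for rising strongly after birth. Several of the 10 genes are also used outside astrocytes, for example Slco1c1 and Sparcl1 in brain blood vessels.

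The libraries held between 15091951 and 16885451 estimated counts, so that 3 counts, taken as the detection floor, stood for 0.176 to 0.206 CPM (counts relative to the library total, with TMM scaling between libraries), which covers counting error only. Ybx1 itself was at 955.8 to 1297 CPM in control and 24.0 to 24.9 CPM in cKO libraries (log2 fold change -5.47, SE 0.164, adjusted p = 6.95e-07, edgeR's quasi-likelihood test). Of 13570 genes that passed the filter on low counts, 10 (0.0737%) had an adjusted p under 0.05. Besides Ybx1 these were the Y-linked genes Uty, Kdm5d, Ddx3y and Eif2s3y, and Rplp0, Rpsa, Tmem269, Cldn19 and Ermap. Control replicate 2 stood apart from the other 5 libraries: its genes with long transcripts were low relative to those with short ones, with a difference of -0.51 on the log2 scale against 0.052 to 0.21 elsewhere. Counts of 4 Y-linked genes summed to 3678 to 4311 in the control libraries and to 15 to 23 in the cKO libraries, so a difference in the sex of the embryos cannot be told apart from genotype in any comparison given here.

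No astrocyte lineage onset gene passed the adjusted threshold. Of the 9 tested genes, 0 had an adjusted p under 0.05 with edgeR or limma in any fit, and 0 of the 8 to which DESeq2 gave an adjusted p. DESeq2 gave none for Gfap. S100b, the gene left out by the filter, had 5, 5 and 6 counts in control and 2, 5 and 2 counts in cKO libraries. At an unadjusted p under 0.05, 1 of 9 (Aqp4) was higher in cKO, where 3.14% of all tested genes were, and 0 of 9 were lower, where 3.49% of all were. The fitted log2 fold change was above 0 for 6 of the 9 genes and for 50.6% of all tested genes. Its median was 0.17 over the 9 genes and 0.0027 over all tested genes, with a range among the 9 from -0.38 for Gfap to 0.74 for Aqp4. In 2 of 9 genes, Aqp4 and Aldoc, every cKO library was above every control library, which was the case for 7.35% of all tested genes. The opposite order occurred in 0 of 9, against 6.93% of all. In bulk tissue, fewer cells of a type and less RNA per cell cannot be told apart. With 3 libraries a group, the exact permutation test of 1 gene (two-sided) can give 0.1 at the lowest.

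**Figure D1:**
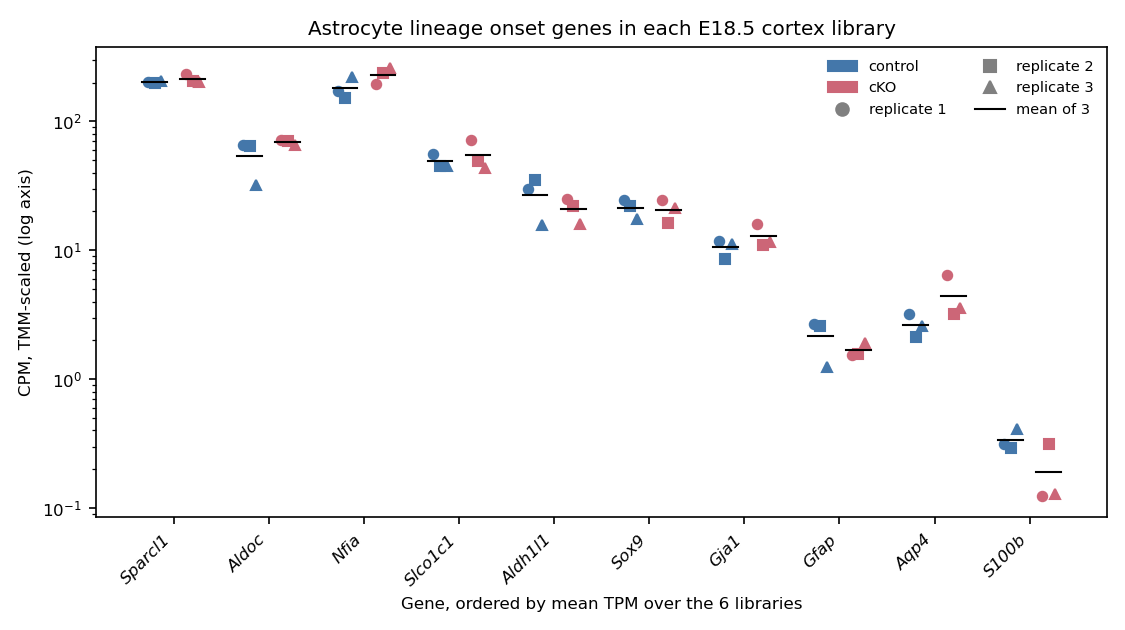
Level of each of the 10 genes in each library, as TMM-scaled CPM on a log axis. Colours give the group, symbols the replicate and black lines the mean of 3 libraries. Aqp4 (2.11 to 3.20 CPM in control, 3.21 to 6.38 in cKO) and Aldoc are the genes whose groups do not overlap, and control replicate 3 lies well below the other libraries for Aldoc.

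The genes best known as astrocyte markers are described first. Gfap, the intermediate filament protein of astrocytes, lies on chromosome 11 of GRCm38 from 102887336 to 102900912 (GENCODE M21, minus strand). It was at 2.70, 2.58 and 1.23 CPM in the control libraries and at 1.55, 1.57 and 1.92 CPM in the cKO libraries. All cKO values lay between the lowest and the highest control value. The log2 fold change was -0.38 (SE 0.317, adjusted p = 0.862, edgeR), with a 95% interval from 0.468-fold to 1.26-fold of control. The library values rest on 18 to 44 counts each. Without control replicate 3 it was -0.65, with an adjusted p of 0.321.

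S100b encodes a small calcium-binding protein of astrocytes and of some cells of the oligodendrocyte lineage, and lies on chromosome 10 from 76253853 to 76261159. Its levels of 0.313, 0.293 and 0.411 CPM in control and 0.124, 0.315 and 0.128 CPM in cKO were close to or below the floor, with overlapping groups. With no filter on low counts its log2 fold change was -0.82 (SE 0.597, adjusted p = 0.855, edgeR), and a difference was not detectable at this depth.

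Aldh1l1, a folate-metabolism enzyme used as a general astrocyte marker, lies on chromosome 6 from 90486427 to 90600203. It was at 30.1, 34.9 and 15.8 CPM in control and at 25.1, 22.1 and 16.0 CPM in cKO libraries. Controls thus spanned both ends of the range, and all 3 cKO libraries fell within it. Its log2 fold change was -0.36 (SE 0.280, adjusted p = 0.857, edgeR), with a 95% interval from 0.504-fold to 1.21-fold. It was -0.63 without control replicate 3 (adjusted p = 0.269) and -0.13 without control replicate 2 (adjusted p = 0.883). Exons of Aldh1l1 share 499 bases with the antisense gene Gm15756 and 105 bases with the noncoding gene Gm45901, and whether counting used strand is not stated.

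Aldoc, the brain form of the glycolytic enzyme aldolase, lies on chromosome 11 from 78322968 to 78327781. In control libraries it was at 65.0, 63.9 and 31.8 CPM. In cKO libraries it was at 71.1, 69.9 and 65.3 CPM, each above every control library, although the gap between the lowest cKO library and the highest control library was small. The means were 53.6 ± 18.9 CPM in control and 68.8 ± 3.03 CPM in cKO (SD, n = 3), giving a log2 fold change of 0.36 (SE 0.235, adjusted p = 0.840, edgeR; two-sided exact permutation p = 0.1). Without control replicate 3 the log2 fold change was 0.093, and without control replicate 2 it was 0.50 (adjusted p = 0.683 and 0.384). The coefficient of variation was 35.2% among controls and 4.41% among cKO libraries.

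Gfap, Aldh1l1 and Aldoc shared 1 library in which they were low. In control replicate 3 they were at 46.8%, 48.5% and 49.3% of the mean of the other control libraries, and Sox9 was at 74.8%. Slco1c1 was at 88.9%, with control replicate 2 at nearly the same level. The remaining astrocyte lineage onset genes were not low there, with S100b at 136%, Nfia at 135%, Gja1 at 110%, Sparcl1 at 104% and Aqp4 at 98.1% of their mean. The control spread of these markers thus lay mostly between control replicate 3 and the other controls.

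Promoter sequences were searched for the letters bound by factors of astrocyte formation. Windows of Gfap and Aldoc are shown because, among those searched, they were the ones with a Stat match. Windows of 300 bases around annotated starts (250 before and 50 after, RefSeq, GRCm38.p6) were searched for 7 of the 10 genes. There were 8 windows in all, because Aldoc has 2. No window of Aqp4, Sox9 or Sparcl1 was searched, so the motif counts do not cover these genes. Gfap, at chr11:102897151-102897450 on the minus strand, and the downstream window of Aldoc, at chr11:78323948-78324247 on the plus strand, are given 5′ to 3′. Capitals mark matches to TTCNNNGAA, the core to which Stat proteins bind, which reads the same on both strands.
Gfap: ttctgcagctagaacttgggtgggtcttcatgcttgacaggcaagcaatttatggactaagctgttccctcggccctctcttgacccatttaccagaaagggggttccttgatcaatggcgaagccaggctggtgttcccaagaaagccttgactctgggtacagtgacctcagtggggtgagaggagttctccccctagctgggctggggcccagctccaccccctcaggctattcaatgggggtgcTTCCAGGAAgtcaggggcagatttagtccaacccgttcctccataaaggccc
Aldoc: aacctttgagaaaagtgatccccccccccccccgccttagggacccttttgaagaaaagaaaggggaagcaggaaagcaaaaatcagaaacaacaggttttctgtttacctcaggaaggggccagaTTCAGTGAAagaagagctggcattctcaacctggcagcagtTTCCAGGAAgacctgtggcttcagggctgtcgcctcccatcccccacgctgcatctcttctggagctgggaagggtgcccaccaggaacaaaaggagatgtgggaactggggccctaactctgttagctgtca
The Gfap window held 1 match, TTCCAGGAA, whose first base lies at position -2 relative to the RefSeq start. In RefSeq Gfap lies from 102887336 to 102897200, so this start is not the 5′ end of the GENCODE bounds given above. The RefSeq starts of Aldh1l1, Aldoc and Nfia, among others, also differ from the GENCODE bounds given in the text. In RefSeq Aldoc lies from 78323073 to 78327781. The Aldoc window shown lies wholly inside both sets of bounds, so its start is not the 5′ end of either. The Aldoc window held 2 matches, TTCAGTGAA at -124 and TTCCAGGAA at -83. TTCCAGGAA thus occurred in both windows. The motif was in 2 of the 8 windows and in 8.30% of the 32851 mouse promoter windows. Matches to TTGGC, part of the site of Nfi family factors, were in 2 of the 8 windows and in 46.7% of all, and matches to ACAAT, a core for Sox factors, were in 2 of 8 and in 31.0% of all, both counted on either strand. Neither was found in the pair of windows shown. ACAAT was in the upstream Aldoc window and the Nfia window, and TTGGC in the upstream Aldoc window and that of S100b. The windows are short, and a match describes letters only.

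The transcription factors of the set came next. Nfia, a nuclear factor I protein that switches progenitors towards glia, lies on chromosome 4 from 97772734 to 98118874. It was at 172, 152 and 220 CPM in control and at 195, 239 and 258 CPM in cKO libraries. Among the controls, replicate 3 was the highest and overlapped the cKO libraries, of which replicate 1 was the lowest. The means were 181 ± 34.5 and 230 ± 32.2 CPM (SD, n = 3), the log2 fold change was 0.34 (SE 0.162, adjusted p = 0.777, edgeR), and the 95% interval ran from 0.985-fold to 1.64-fold. Correcting for length and GC gave 0.17 (adjusted p = 0.610). Leaving out control replicate 3 gave 0.50 (adjusted p = 0.261) and leaving out control replicate 2 gave 0.23 (adjusted p = 0.517). The longest annotated Nfia transcript has 9526 bases, and control replicate 2, in which long transcripts were low, had the lowest Nfia value. Whether transcript length was the cause was not tested.

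Sox9, which acts before Nfia and marks both radial glia and astrocytes, lies on chromosome 11 from 112782224 to 112787760. It was at 24.5, 22.02 and 17.4 CPM in control and 24.5, 16.2 and 21.1 CPM in cKO libraries, with nearly the same highest value in both groups. Its log2 fold change was -0.051 (SE 0.186, adjusted p = 0.967, edgeR), the least among the 9 genes in size, and the 95% interval ran from 0.721-fold to 1.29-fold. Its sign was positive in 2 of the fits with 1 library left out. On the authors' TPM scale it was 0.084, where the median of all genes was 0.14, so that Sox9 was below that median on this scale too.

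The membrane proteins included Aqp4, which had the largest fitted log2 fold change in size among the 9 tested genes. Aqp4 is the water channel of astrocyte endfeet and lies on chromosome 18 from 15389496 to 15410982. It had 51, 36 and 38 counts in control and 103, 51 and 56 counts in cKO libraries. On the CPM scale these were 3.20, 2.11 and 2.60 in control and 6.38, 3.21 and 3.58 in cKO. Only cKO replicate 1 stood clearly above the controls, since the lowest cKO library and the highest control library were nearly equal. The log2 fold change was 0.74 (SE 0.306, unadjusted p = 0.0392, adjusted p = 0.718, edgeR), a 1.67-fold difference with a 95% interval from 1.03-fold to 2.69-fold. The two-sided exact permutation p was 0.1, the smallest possible. Without cKO replicate 1 it was 0.37 (unadjusted p = 0.199, adjusted p = 0.997), and the unadjusted p was also above 0.05 without control replicate 2 (0.0839) and without control replicate 3 (0.0687). Over the 16 alternatives the log2 fold change was above 0, from 0.37 to 0.92, with adjusted p from 0.241 to 0.9999.

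Gja1 encodes connexin 43, the main gap junction protein of astrocytes, and lies on chromosome 10 from 56377330 to 56402513. It was at 11.8, 8.55 and 11.2 CPM in control and 16.0, 11.0 and 11.5 CPM in cKO libraries. As with Aqp4, cKO replicate 1 was the highest library and control replicate 2 the lowest, and the groups overlapped. For cKO against control the log2 fold change was 0.28 (SE 0.198, adjusted p = 0.854, edgeR), with a 95% interval from 0.891-fold to 1.66-fold, and it was 0.092 without cKO replicate 1.

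Slco1c1, a transporter of thyroid hormone into the brain found in vessels and astrocytes, lies on chromosome 6 from 141524368 to 141570177. It was at 56.2, 45.4 and 45.2 CPM in control and 72.2, 49.0 and 43.3 CPM in cKO libraries. Again cKO replicate 1 was the highest, and the lowest value of all was also a cKO library. Here the log2 fold change was 0.17 (SE 0.192, adjusted p = 0.900, edgeR). It changed sign, to -0.083, without cKO replicate 1.

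Sparcl1, a secreted matrix protein that promotes synapse formation, lies on chromosome 5 from 104079111 to 104113733. It varied least among the controls, and was at 201, 199 and 207 CPM in control and 231, 205 and 201 CPM in cKO libraries. The groups overlapped in CPM, with cKO replicate 1 again the highest. The log2 fold change was 0.071 (SE 0.105, adjusted p = 0.918, edgeR), and the 95% interval from 0.891-fold to 1.24-fold was the narrowest of the 9. On the authors' TPM scale every cKO library (169 to 194 TPM) was above every control library (136 to 167 TPM). The TPM scale moved the median of all genes to 0.14 on the log2 scale, against 0.21 for Sparcl1, and on it 19.2% of all tested genes were without overlap and higher in cKO.

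**Figure D2:**
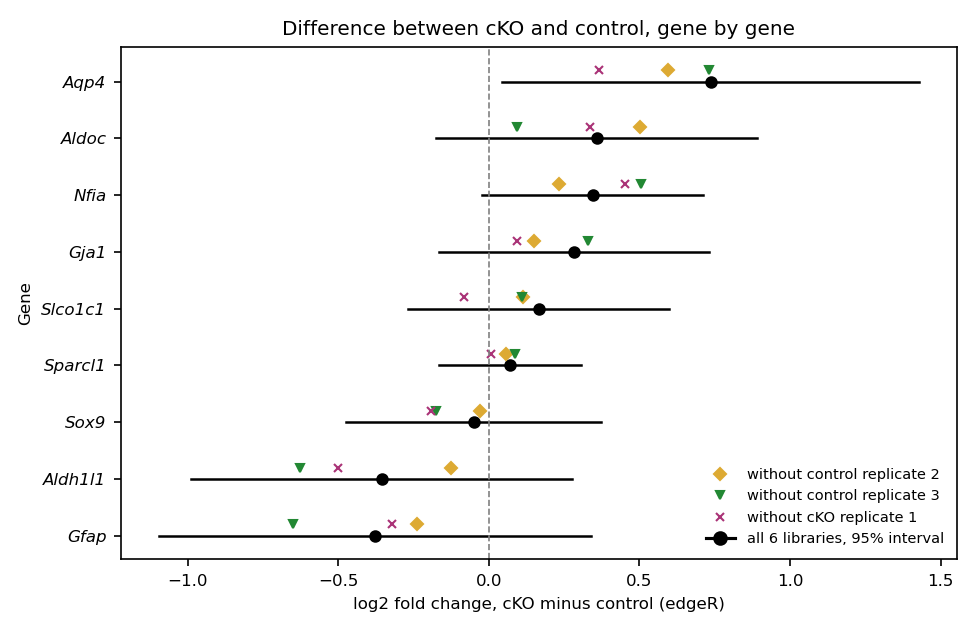
Log2 fold change of cKO against control from edgeR for the 9 tested genes. Black points and bars give the fit of all 6 libraries with its 95% interval, and coloured symbols the fits without control replicate 2, control replicate 3 or cKO replicate 1. All intervals but that of Aqp4 include 0, Aldoc moves from 0.36 to 0.093 without control replicate 3, and Aqp4 from 0.74 to 0.37 without cKO replicate 1.

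Each library had its own profile over the 9 genes. The highest library was cKO replicate 1 for 5 genes (Aqp4, Gja1, Slco1c1, Sparcl1 and Aldoc), and the lowest was control replicate 2 for 4 genes and control replicate 3 for 3. Within its group, cKO replicate 1 was the highest for 7 of 9 genes and control replicate 3 the lowest for 5 of 9. Relative to the other cKO libraries, cKO replicate 1 was at 188% for Aqp4, 157% for Slco1c1, 142% for Gja1 and 114% for Sparcl1, but at 78.5% for Nfia. Summed over all 10 genes, the level was 531 to 567 CPM in control and 616 to 643 CPM in cKO libraries. Nfia and Sparcl1 made up 65.8% to 77.2% of these sums. Over the other 8 genes the sums overlapped, at 126 to 194 CPM in control and 163 to 217 CPM in cKO libraries.

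**Figure D3:**
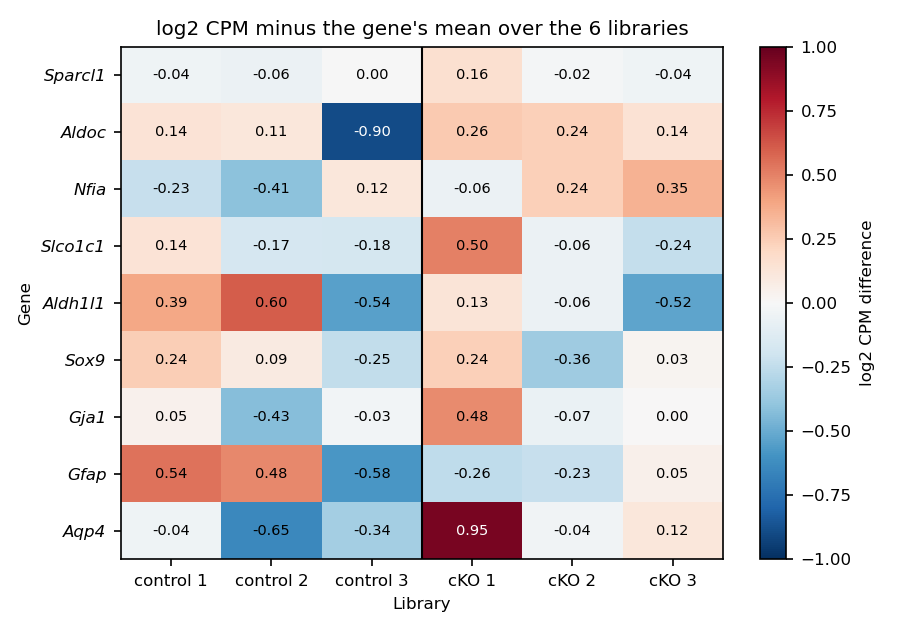
Log2 CPM of the 9 tested genes in each library minus the gene's mean over the 6 libraries, with the value written in each cell. Red cells are above and blue cells below the gene's mean. Control replicate 3 is low for Aldoc (-0.90), Gfap (-0.58) and Aldh1l1 (-0.54), and cKO replicate 1 is high for Aqp4 (0.95), Slco1c1 (0.50) and Gja1 (0.48).

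Levels of different genes were compared on the authors' TPM scale, which accounts for transcript length. Over the 6 libraries Sparcl1 was the most abundant, at a mean of 165 TPM, and its range did not overlap that of any other gene in the set. Aldoc (57.7), Nfia (50.7) and Slco1c1 (40.2) followed, and these neighbours overlapped. Aldh1l1 (19.0), Sox9 (12.2) and Gja1 (9.44) formed the middle of the order and also had overlapping ranges. Within each single library, however, Aldh1l1 was above Sox9 and Sox9 above Gja1. Gfap (1.77) and Aqp4 (1.66) could not be ordered, since each was the higher of the pair in 3 of 6 libraries. S100b was the lowest, at 0.432 TPM, with a range that did not overlap that of Aqp4. Gfap, Aqp4 and S100b were thus at the bottom of the order in both groups. The secreted protein Sparcl1, the metabolic gene Aldoc and the factor Nfia were at the top. No library from after birth was analysed here.

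Other genes of astrocyte formation gave no call either. Over 4 lists of other astrocyte genes, gp130, Jak and Stat pathway genes, Bmp pathway genes and gliogenic transcription factors, 0 genes had an adjusted p under 0.05 with edgeR or limma in any fit, and 0 of those to which DESeq2 gave an adjusted p. At an unadjusted p under 0.05 the number was 6 over the 37, 13, 18 and 18 genes tested, and the 6 are named with their pathways. Of all tested genes, 3.14% were higher and 3.49% lower in cKO at that threshold. Of the other astrocyte genes, 37 of 40 were tested, 0 had an unadjusted p under 0.05, 23 had a log2 fold change above 0 and the median was 0.061. The smallest unadjusted p values of this list belonged to the mitochondrial carrier Slc25a18 (0.81 ± 0.204 CPM in control, 1.3 ± 0.303 in cKO), glutamine synthetase Glul (167 ± 8.01 and 144 ± 3.51 CPM), the bicarbonate transporter Slc4a4 (22.4 ± 7.15 and 31.2 ± 4.74 CPM) and Ttyh1 (64.6 ± 10.6 and 81.5 ± 18.0 CPM; SD, n = 3). Their adjusted p values ran from 0.770 to 0.796. For Glul every cKO library lay below every control library, and for the amino acid transporter Slc7a10 every cKO library (2.17 to 2.97 CPM) lay above every control library (1.93 to 2.12 CPM). Slc7a10 is named after its values were seen. The glutamate transporters Slc1a3 (log2 fold change 0.18, SE 0.174) and Slc1a2 (-0.0043, SE 0.185), the fatty acid binding protein Fabp7 (-0.24, SE 0.186) and the potassium channel Kcnj10 (0.18, SE 0.207) had adjusted p values from 0.857 to 0.997 by edgeR. Without control replicate 3, 8 of 38 tested genes of this list had an unadjusted p under 0.05, 2 higher and 6 lower in cKO, and the median was -0.073. In the same fit 5.98% of all tested genes were higher and 7.97% lower at that threshold.

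The pathway genes were read in the order of ligand, receptor and effector. Of 16 gp130, Jak and Stat genes, 13 were tested, and 2 were higher and 1 lower in cKO at an unadjusted p under 0.05. Of all tested genes, 3.14% were higher and 3.49% lower at that threshold. Cntf, a ligand that induces astrocytes, was at 0.752 to 1.58 CPM in control and 0.557 to 0.702 CPM in cKO libraries (log2 fold change -0.96, SE 0.358, adjusted p = 0.635, edgeR). Ctf1, another ligand of the family, was at 1.40 ± 0.0516 CPM in control and 0.963 ± 0.131 CPM in cKO (SD, n = 3). Both ligands were thus near 1 CPM, while the receptor genes were far above the floor. Il6st, which encodes the shared receptor gp130, was at 22.1 to 35.7 CPM in control and 37.9 to 42.5 CPM in cKO libraries (log2 fold change 0.44, SE 0.170, adjusted p = 0.659). The kinase gene Jak1 was at 74.5 to 88.5 CPM in control and 95.3 to 106 CPM in cKO libraries (0.28, SE 0.111, adjusted p = 0.687). For Stat3 the log2 fold change was 0.21 (SE 0.151, adjusted p = 0.854). Socs3, the feedback inhibitor that the pathway induces, was at 9.32 to 11.3 CPM in control and 8.12 to 9.16 CPM in cKO libraries (-0.30, SE 0.151, adjusted p = 0.795), and is named after its values were seen. The groups did not overlap for 5 of the 13 genes, of which Il6st and Jak1 were higher in cKO and Cntf, Ctf1 and Socs3 lower. Of all tested genes, 7.35% were higher and 6.93% lower without overlap. The median over the list was -0.0099.

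Of 21 Bmp pathway genes, 18 were tested, with a median log2 fold change of 0.12. At an unadjusted p under 0.05, 2 were higher and 1 lower, against 3.14% and 3.49% of all tested genes. The receptor gene Bmpr1b was at 22.8 to 28.6 CPM in control and 31.7 to 36.0 CPM in cKO libraries (0.36, SE 0.127, adjusted p = 0.607, edgeR). The effector gene Smad5 was at 203 to 259 CPM in control and 283 to 295 CPM in cKO libraries (0.28, SE 0.121, adjusted p = 0.731). Bmpr1a had a log2 fold change of 0.22 (SE 0.149). Of the other tested effector genes, Smad4 was at -0.21 (SE 0.155) and Smad1 at -0.024. Id2, a target of the pathway that is also abundant in cortical neurons, was at 263 to 286 CPM in control and 187 to 229 CPM in cKO libraries (-0.36, SE 0.115, adjusted p = 0.555). The other Id genes had log2 fold changes of -0.31 for Id1, 0.19 for Id3 and -0.048 for Id4. Neither effectors nor targets thus had values on 1 side only. Smad4, Smad1 and these 3 Id genes are named after their values were seen.

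Among gliogenic transcription factors, 18 of 19 were tested, 0 had an unadjusted p under 0.05, 7 were above 0 and the median was -0.064. Of the relatives of Nfia, Nfib was at 0.15 (SE 0.165) and Nfix at 0.026 (SE 0.161) on the log2 scale, and Nfic at 0.17 (SE 0.129), with adjusted p values from 0.857 to 0.983. Whether Nfia differed from them was not tested. Sox8, a relative of Sox9, was at -0.0094 (SE 0.238). Pou3f2 (0.23), Sox6 (0.35) and Olig2 (-0.33) had adjusted p values from 0.815 to 0.862 by edgeR.

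**Figure D4:**
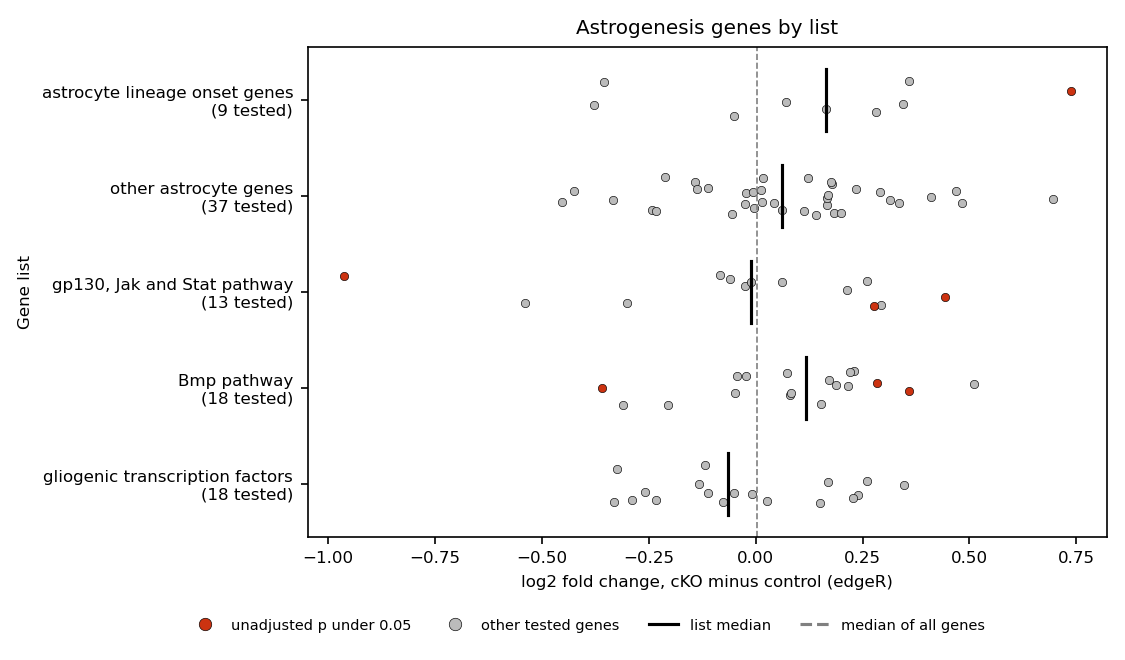
Log2 fold change of cKO against control from edgeR for each tested gene of 5 lists, with list medians as black bars and the median of all tested genes (0.0027) as a dashed line. Red points have an unadjusted p under 0.05. They are Aqp4 among the astrocyte lineage onset genes, 3 genes of the gp130, Jak and Stat list and 3 of the Bmp list, and none of the other 2 lists.

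Markers of other cell types were set beside these values. The lists share some genes. Of the radial glia markers, Slc1a3, Fabp7, Vim, Ptprz1 and Tnc are also among the other astrocyte genes, and Hes1, Hes5 and Hopx among the gliogenic transcription factors. Olig2 is both a gliogenic factor and an oligodendrocyte precursor marker, and Cspg4 both a pericyte and an oligodendrocyte precursor marker. Brain endothelial markers (10 genes) summed to 342 to 351 CPM in control and to 359 to 448 CPM in cKO libraries, without overlap. Their highest library was cKO replicate 1, as it was for Slco1c1, Sparcl1, Gja1, Aqp4 and Aldoc. It was also the highest for the sums of oligodendrocyte precursor (97.1 CPM), ependymal (4.21 CPM) and choroid plexus (2.04 CPM) markers. It was not the highest for radial glia, pericyte, microglia, meningeal fibroblast, cortical neuron or erythroid markers. Of 9 endothelial markers tested, 0 had an adjusted p under 0.05 and 1, higher in cKO, an unadjusted p under 0.05 (edgeR, with the same counts by DESeq2). With edgeR 3.14% of all tested genes were higher at that threshold. Radial glia markers (11 genes) summed to 1589 to 2162 CPM in control and 1773 to 1902 CPM in cKO libraries, and their median level in control replicate 3 was 0.26 below the mean of the 6 libraries on the log2 scale, where it was 0.25 below for the astrocyte lineage onset genes. Cortical neuron markers (9 genes) summed to 4762 to 4849 CPM in control and 4045 to 4496 CPM in cKO libraries, without overlap. Tubb3 had the highest level of these, at 1681 ± 334 CPM in control and 1360 ± 70.9 CPM in cKO (SD, n = 3). Taken singly, 0 of the 9 were lower in cKO at an unadjusted p under 0.05 (edgeR), and 0 were lower without overlap. The log2 fold change was above 0 for 2 of the 9. Among these 9, Slc17a7, a glutamate transporter of synaptic vesicles, had a log2 fold change of 0.73 (adjusted p = 0.0722 with edgeR) and passed the threshold with DESeq2 (adjusted p = 3.73e-06). Tubb3 and Slc17a7 are named here after their values were seen. Meningeal fibroblast markers (6 genes) summed to 10.4 to 12.1 CPM in control and 13.6 to 14.4 CPM in cKO libraries, also without overlap. Their part in the values of the astrocyte lineage onset genes was not tested. Oligodendrocyte precursor markers (73.4 to 91.0 CPM in control, 60.9 to 97.1 in cKO), pericyte markers (174 to 254 and 226.8 to 256.8 CPM), microglia markers (65.4 to 82.3 and 76.2 to 81.5 CPM) and erythroid markers (982 to 1349 and 997 to 1215 CPM) overlapped between the groups. Choroid plexus markers, 7 genes in all, summed to at most 2.04 CPM in any library, and the 3 ependymal markers in the table to at most 4.21 CPM. No marker of these lists in the table was at 0 in all 6 libraries.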

How the data were processed

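RNA of 3 Ybx1 cKO and 3 control cortex samples at E18.5 was sequenced on the DNBSEQ platform. The authors deposited 1 table that gives each gene, in each library, as estimated count, TPM and FPKM. The deposited estimated counts are not normalized, the authors' TPM values are scaled by transcript length so that every library has 1 common sum. FPKM values of the authors, scaled by length and library total, are not printed here. The submitters' processing notes name HISAT2 2.2.1, Bowtie2 2.4.5, RSEM 1.3.1 and GRCm38 (mm10). The annotation and strandedness are not given in the sources used here.

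Libraries were assigned by the labels. Estimated counts, 89.4% of them whole, were rounded, and total 15091951 to 16885451 per library. Genes were filtered with filterByExpr (minimum count 10), scaled by TMM and compared, all genes together, by the quasi-likelihood test of edgeR 4.0.16 in R 4.3.3, with p-values adjusted over 13570 genes (Benjamini-Hochberg). The 95% intervals use the standard error from the F statistic. The common biological coefficient of variation was 0.147, and replicates differed by a chi-square of 3.52 to 65.4 per degree of freedom, so none was counted as a duplicate. Alternatives were DESeq2 1.42.0, limma 3.58.1 on log2(TPM + 1), other scalings and filters, removal of each library in turn, removal of X and Y genes, a replicate block, and correcting counts for transcript length with GC content (mgcv 1.9.3; 16781 of 17348 genes had both in GENCODE M21). The scripts were tested on simulated data. Figures used matplotlib 3.10.9.

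The 10 genes and the lists were chosen with earlier results of these data known. Named by rule were these 10, Ybx1, and, of each list of astrocyte formation, the genes with an adjusted p under 0.05 or else the 4 smallest unadjusted p values, plus defining relatives. Gjb6 was not analysed here. Nfia shares 4 exon bases with another gene and Aldh1l1 shares those given in the text. The remaining 8 genes share none.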

Additional observations from a re-analysis of the deposited data

How the results depend on the processing

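In the 16 alternative fits (with DESeq2, among genes given an adjusted p), 0 astrocyte lineage onset genes and 0 genes of the other astrocyte formation lists had an adjusted p under 0.05, and at an adjusted p under 0.1 the first count was still 0. The log2 fold change of Ybx1 was from -5.56 to -5.27 and past the threshold in each. The number of genes called over the whole table was 99 with DESeq2, 6 without X and Y genes, 153 after correcting for length and GC, 160 when the replicate block was added to this, 18 at an adjusted p under 0.1 and from 8 to 122 with 1 library left out, 122 without control replicate 2 and 19 without control replicate 3. At an unadjusted p under 0.05, the number of astrocyte lineage onset genes was 3 with the replicate block and 3 with limma on TPM (Aqp4, Aldoc and Nfia, all higher), where 3.98% and 8.83% of all genes were higher. It was 3 with both the block and the correction (Aqp4 and Aldoc higher, Aldh1l1 lower), where 14.1% of all genes were called, and from 1 to 3 with 1 library left out. The 3 without control replicate 3 were Nfia, higher, and Gfap and Aldh1l1, lower, where 5.98% of all genes were higher and 7.97% lower. For the other lists it was 14 with both the block and the correction, and from 3 to 20 with 1 library left out, 20 without control replicate 3, 13 without control replicate 2 and 3 without cKO replicate 2 or 3. The share of all tested genes at that threshold moved as well. It was 14.1% with both the block and the correction, 14% without control replicate 3 and 12.1% without control replicate 2. Without cKO replicate 2 it was 4.41%, and without cKO replicate 3 it was 3.57%. The median of the 9 genes minus that of all genes was 0.16, and ran from 0.013 when cKO replicate 1 was left out to 0.27 when control replicate 1 was. The TPM scale moved the median of all genes to 0.14. Sox9 reversed to 0.084 with limma on TPM, and ranged from -0.19 to 0.097 with 1 library left out, positive without control replicate 1 and without cKO replicate 2. Slco1c1 ranged from -0.083 (without cKO replicate 1) to 0.31. The causes were not tested. Same-numbered libraries deviated together with correlations of 0.0884, 0.0615 and 0.230 across genes, not all above 0.1, so the numbers were not taken as pairs, although all 6 libraries correlated best with their own number in the other group. With the replicate block 11 genes were called over the whole table, and 0 of the 9 genes passed the adjusted threshold (smallest adjusted p = 0.478, Aqp4, edgeR). The difference of medians was 0.13. In that fit 9 genes of the other lists had an unadjusted p under 0.05, as did 7.62% of all tested genes. Depth limits S100b, Gfap and Aqp4 most, with 2 to 103 counts per library.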
